A study of Mus musculus with 3 samples.

Results

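The 10 genes described here mark the simple epithelium that covers the ovary: the keratins Krt7, Krt8, Krt18 and Krt19, the uroplakins Upk3b and Upk1b, mesothelin (Msln), galectin-7 (Lgals7), mucin 16 (Muc16) and the membrane glycoprotein M6A (Gpm6a). They were taken by symbol from the 53465 genes of 3 single-cell RNA-seq libraries, and each symbol matched 1 gene. Cells in which 3 or more of the 10 genes had a UMI (a unique molecular identifier, which stands for 1 captured transcript) were separated from cells that held only 1 or 2 of them. The libraries were made from dissociated ovaries of wild-type C57BL/6 female mice at embryonic day 16.5 (the sample's title gives ED17), postnatal day 7 and postnatal day 14, 1 library for each age, and no treatment is named. After filtering they held 456, 509 and 583 cells with medians of 15091, 12224 and 11435 UMIs, and no cell barcode was shared between libraries. With 1 library for each age, and no word in the labels on how many animals were pooled, a difference between ages has no replicate check, and the 95% intervals below cover counting error only. A difference in the summed level of a library can come from more cells of a type or from more RNA of a gene in each cell, and these cannot be told apart from the sum alone.

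The ovarian surface epithelium is a mesothelium, continuous with the lining of the peritoneum, and it arises from the coelomic epithelium of the genital ridge. The same coelomic epithelium also gives rise to pregranulosa cells, the supporting cells of the fetal ovary that surround germ cells. Keratins form filaments only as pairs of a type II chain (Krt7, Krt8) with a type I chain (Krt18, Krt19). Uroplakins are membrane proteins best known from the bladder lining, mesothelin is a surface protein that binds the large mucin Muc16 (CA125), and galectin-7 is a sugar-binding protein of epithelia.

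Each age held cells with many of the 10 genes, but the cell classes holding them differed. At embryonic day 16.5, 74 of 456 cells (16.2%, exact binomial interval 13.0 to 19.9) had 3 or more of the genes. At postnatal day 7 it was 34 of 509 cells (6.68%, 4.67 to 9.21), and at postnatal day 14 it was 33 of 583 (5.66%, 3.93 to 7.86). Cell classes were named from clusters of all cells, built with the 10 genes left out and named from markers that are not among them. Of the 74 embryonic cells, 68 were granulosa-like, 2 germ cell-like and 4 unnamed. Of the 34 cells at postnatal day 7, 15 belonged to a surface epithelium or mesothelium-like cluster (called surface-like below) and 17 were granulosa-like, and at postnatal day 14 these numbers were 12 and 15 of 33. A count of 3 genes therefore did not single out surface cells: every surface-like cell had at least 5 of the genes, while the postnatal granulosa-like cells with 3 or more had at most 5.

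No cell next to the threshold was surface-like. Cells with exactly 3 of the genes numbered 35, 15 and 17 at the 3 ages in order, and cells with exactly 2 numbered 33, 51 and 32. The most frequent trio was Krt8 with Krt18 and Lgals7, in 22, 12 and 6 of the cells with exactly 3. Cells over the threshold were also deeper than the rest, with medians of 20842 against 14361 UMIs in the embryo, 18678 against 12116 at postnatal day 7 and 28551 against 11279 at postnatal day 14. After thinning every cell to 5000 UMIs, 28, 16 and 15 cells kept 3 or more of the genes. The postnatal counts stayed near the 15 and 12 surface-like cells, and the embryonic count fell the most.

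**Figure D1:**
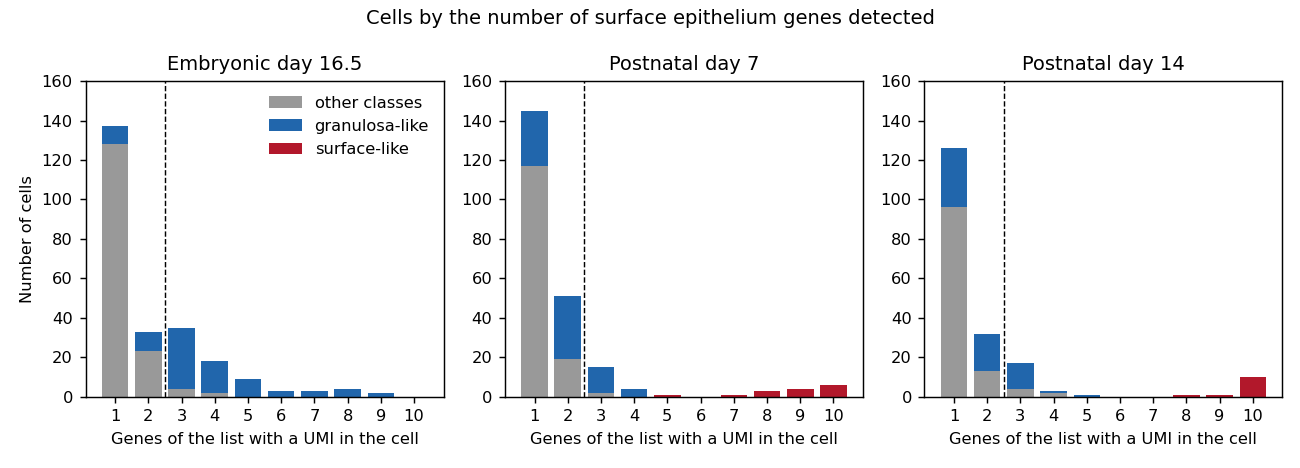
Number of cells (vertical axis) by how many of the 10 genes had a UMI in the cell (horizontal axis), for each age, coloured by class; the dashed line marks the threshold of 3, and cells with 0 are not drawn. After birth the surface-like cells stand apart at 5 to 10 genes with 10 genes in 6 cells at postnatal day 7 and in 10 cells at postnatal day 14, while the embryonic granulosa-like cells run without a gap from 1 to 9.

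Lgals7 was the most frequent gene in cells that held a single gene of the list. In the embryo 137 cells had exactly 1 of the genes, and in 120 of them it was Lgals7, of which 9 were granulosa-like. At postnatal day 7 it was Lgals7 in 87 of 145 such cells (17 granulosa-like), and at postnatal day 14 in 54 of 126 (9 granulosa-like). Krt8, the type II keratin of simple epithelia, was the lone gene in 3, 15 and 21 cells, of which 0, 11 and 17 were granulosa-like. Among granulosa-like cells with a single gene, Lgals7 was the more frequent at postnatal day 7 and Krt8 at postnatal day 14.

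Summed over each library, Lgals7 had fewer UMIs at each later age, Upk3b, Upk1b, Msln, Muc16 and Gpm6a had more, and the keratins were highest at postnatal day 7. The exact intervals of the levels overlapped between both postnatal ages for Krt7 and Krt19. For Krt8 and Muc16 they overlapped between the embryo and postnatal day 7. Krt8 gave 223 UMIs in 78 cells in the embryo, 263 in 74 cells at postnatal day 7 and 196 in 64 cells at postnatal day 14, or 24.9, 30.1 and 21.7 CPM (counts scaled to 1000000 UMIs of the cells summed). Its partner Krt18 gave 226, 397 and 309 UMIs in 86, 56 and 36 cells. Krt19 gave 133 UMIs in 41 cells, 440 in 36 and 433 in 32, so that more UMIs came from fewer cells after birth. Krt7 gave 89 UMIs in 35 embryonic cells, 141 in 21 cells at postnatal day 7 and 131 in 18 cells at postnatal day 14.

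Upk3b, a uroplakin of mesothelial cells, gave 153 UMIs in 22 cells, 296 in 24 cells and 701 in 43 cells. Upk1b, a tetraspanin that pairs with other uroplakins, gave 18, 70 and 180 UMIs in 14, 14 and 18 cells. Msln had no UMI in 456 embryonic cells, and the exact upper limit of its share of cells was 0.806% (a floor of 3 counts gives 0.658%). It gave 23 UMIs in 10 cells at postnatal day 7 and 74 in 14 cells at postnatal day 14. Muc16, the binding partner of mesothelin, gave 13, 19 and 67 UMIs in 6, 10 and 15 cells, and Gpm6a gave 13, 69 and 138 UMIs in 10, 28 and 29 cells. Lgals7 went the other way, with 2188 UMIs in 222 embryonic cells, 1155 in 167 cells and 906 in 106 cells. With all 10 genes added, the libraries were at 341, 329 and 346 CPM. A gene was called where its (CPM + 10) differed by 2-fold or more, among genes with at least 10 UMIs in the compared groups together. By that rule 4 of the 10 genes (Upk3b, Upk1b, Krt19 and Gpm6a) were higher at postnatal day 14 than at embryonic day 16.5, where 3.14% of 17399 genes were higher, and Lgals7 was lower, where 2.22% were lower. Krt19 alone was already higher at postnatal day 7, and none was lower, where 3.18% of genes were higher and 1.42% lower. Between the postnatal libraries none of the 10 was called, where 0.457% were higher and 0.804% lower. Erythroid-like cells were 144 of the 456 embryonic cells and held 2657816 of that library's 8964585 UMIs. At postnatal day 7 and 14 they were 13 and 9 cells with 169425 and 202447 UMIs. The calls against the embryo were not repeated without them, and those for Krt19 and Lgals7 at postnatal day 7 can depend on these cells.

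Krt8 and Krt18 lie next to each other on chromosome 15, Krt8 at 101996698 to 102004482 on the minus strand and Krt18 at 102028180 to 102032027 on the plus strand (GRCm38, GENCODE M21), 23697 bases apart. Promoters in the RefSeq table of GRCm38.p6 were found for 7 of the 10 genes, with no entry for Krt19, Upk1b or Msln. Stretches from the 250 bases before the RefSeq start of 4 genes are shown. Krt8 with Krt18 and Upk3b with Lgals7 are the pairs whose levels are compared below. Of the 250 bases, only those ahead of the first annotated exon met within them are given, 5′ to 3′ along the gene's strand. The Lgals7 stretch lies inside the gene as annotated in GENCODE M21 (28863853 to 28866284), so it is upstream of the RefSeq start only. Capitals mark matches on either strand to the letters TATAA (TATA box), GGGCGG (GC box), GATAA (GATA site) or TGANTCA (AP-1 site).
Krt8, chr15:102004483-102004592, minus strand: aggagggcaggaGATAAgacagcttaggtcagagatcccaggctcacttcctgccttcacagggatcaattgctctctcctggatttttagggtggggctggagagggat
Krt18, chr15:102027966-102028179, plus strand: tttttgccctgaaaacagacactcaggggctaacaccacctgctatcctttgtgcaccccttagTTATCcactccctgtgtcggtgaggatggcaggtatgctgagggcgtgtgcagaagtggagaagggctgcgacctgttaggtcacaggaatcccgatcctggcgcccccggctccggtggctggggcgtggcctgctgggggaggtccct
Upk3b, chr5:136038246-136038495, plus strand: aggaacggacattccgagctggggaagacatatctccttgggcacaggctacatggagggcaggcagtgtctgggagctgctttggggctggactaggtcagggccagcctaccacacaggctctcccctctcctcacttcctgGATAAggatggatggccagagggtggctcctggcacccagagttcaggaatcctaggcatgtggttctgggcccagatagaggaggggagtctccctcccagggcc
Lgals7, chr7:28864136-28864228, plus strand: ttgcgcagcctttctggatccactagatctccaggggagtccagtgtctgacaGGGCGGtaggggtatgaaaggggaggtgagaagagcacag
The Krt8, Krt18 and Upk3b stretches each held 1 match to GATAA (written TTATC on the other strand in Krt18), and the Lgals7 stretch held 1 match to GGGCGG. Of all 32851 RefSeq promoters of 250 upstream bases, 22.6% held GATAA, 32.7% GGGCGG, 22.8% TATAA and 6.75% TGANTCA. Both matched motifs are thus common in such promoters, and the matches describe the letters only. The Krt8, Krt18 and Lgals7 stretches are shorter, at 110, 214 and 93 bases, so these shares are not matched to their length. The full 250 bases of Krt18 also held 1 match to TATAA, in the part not printed.

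After birth the surface-like cells held most UMIs of all 10 genes, although they were only 15 of 509 and 12 of 583 cells. For 6 of the genes these cells held 89.5% or more at both ages. Upk3b had 97.0% of its UMIs there at postnatal day 7 and 95.6% at postnatal day 14, Upk1b 97.1% and 96.7%, Msln 95.7% and 95.9%, Krt7 95.7% and 95.4%, Krt19 93.9% and 95.2%, and Muc16 89.5% and 95.5%. Outside the surface-like and granulosa-like cells no cell of any age held more than 1 UMI of Krt7, Upk3b, Upk1b, Msln or Muc16. The remaining genes were shared with other cells: the surface-like cells held 83.6% and 91.9% of the Krt18 UMIs, 68.4% and 84.1% of Lgals7, 71.0% and 63.8% of Gpm6a, and 59.7% and 53.6% of Krt8. Most of the other Krt8 UMIs, 34.6% and 38.8% of the total, were in granulosa-like cells. With separate clustering of the libraries, the surface-like cluster of postnatal day 7 held 37 cells in place of 15, and the level of the 10 genes together in it was 2858 CPM in place of 6965.

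Within the surface-like cells the keratins and Lgals7 were present at both postnatal ages. Krt18 ranged from 4 to 61 UMIs per cell (median 16) in the 15 cells of postnatal day 7 and from 2 to 59 (median 15) in the 12 cells of postnatal day 14. Krt19 ranged from 0 to 110 (median 20) and from 3 to 95 (median 26), Krt7 from 2 to 21 (median 8) and from 2 to 47 (median 5), and Krt8 from 1 to 43 (median 7) and from 0 to 29 (median 6.5). Lgals7 ranged from 3 to 144 UMIs (median 44) and from 9 to 224 (median 41), and was found in all 27 cells. The ages overlapped throughout for these 5 genes. The lower counts of Msln, which was found in 9 of 15 and 11 of 12 cells, and of Muc16, in 8 of 15 and 12 of 12, reached at most 5 and 4 UMIs per cell at postnatal day 7. A week later the highest cells held 16 and 20.

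From postnatal day 7 to 14 the uroplakin and mesothelin genes were higher in surface-like cells and the keratins were not. By the 2-fold rule 4 of the 10 genes were higher at postnatal day 14 and 0 lower, where 7.05% of 7659 genes were higher and 3.62% lower. Upk3b rose from 881 to 2082 CPM, a ratio of 2.36 (exact interval 2.06 to 2.73), and Upk1b from 209 to 541 CPM, a ratio of 2.59 (1.95 to 3.48). Upk3b had 1 to 50 UMIs per cell (median 14) at the earlier age and 23 to 114 (median 48) at the later one, so that the cells of the 2 ages overlapped in part. Msln rose from 67.5 to 221 CPM, a ratio of 3.27 (2.00 to 5.54), and Muc16 from 52.2 to 199 CPM, a ratio of 3.81 (2.21 to 6.95). Gpm6a, at 150 and 274 CPM, had a ratio of 1.82 (1.27 to 2.64) and was not called.

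The keratin ratios lay near or below 1. Krt19 was at 1267 and 1281 CPM (ratio 1.01, 0.880 to 1.16), Krt7 at 414 and 389 CPM (0.938, 0.729 to 1.21) and Krt18 at 1019 and 883 CPM (0.867, 0.737 to 1.02). Krt8 had 482 CPM at postnatal day 7 and 326 CPM at postnatal day 14, a ratio of 0.678 with an interval of 0.524 to 0.873. Lgals7 was at 2424 and 2368 CPM (0.977, 0.883 to 1.08).

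**Figure D2:**
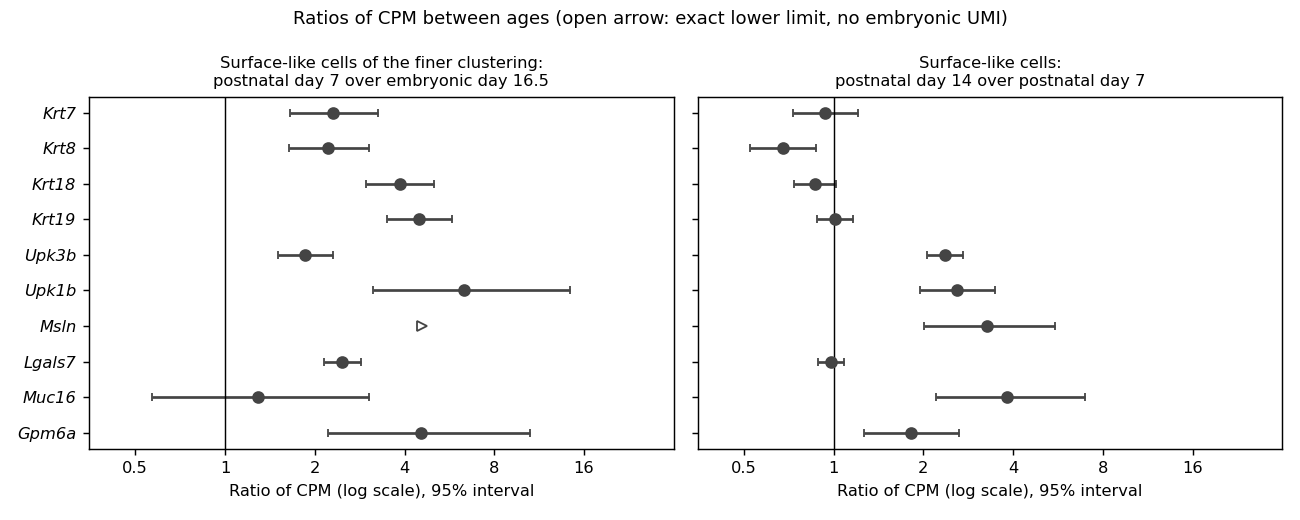
Ratio of CPM between ages (horizontal axis, log scale, with the exact 95% interval) for each of the 10 genes (vertical axis); on the left surface-like cells of the finer clustering described below (15 cells of postnatal day 7 over 10 of embryonic day 16.5), and on the right surface-like cells, postnatal day 14 over 7. On the left all 10 points lie above 1, with Msln drawn at its exact lower limit and an interval for Muc16 that includes 1; on the right Upk3b, Upk1b, Msln and Muc16 lie above 2 while Krt7, Krt18, Krt19 and Lgals7 have intervals that include 1.

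In the embryo Msln had no UMI, and the other 9 genes were found mainly in the 87 granulosa-like cells. Those cells held 93.3% of the Krt7 UMIs of the library, 91.9% of Krt8, 88.9% of Krt18, 92.5% of Krt19, 95.4% of Upk3b and 81.5% of Lgals7. Within them Lgals7 was found in 86 of 87 cells, with 0 to 79 UMIs per cell and a median of 19, and Krt8 and Krt18 were found in 63 and 68 cells with a median of 1 UMI each. Upk3b was found in only 15 of the 87 cells.

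The 15 granulosa-like embryonic cells with Upk3b also held more of the keratins than the 72 without it, but not more Lgals7. Krt19 was at 240 CPM with Upk3b and 21.1 CPM without, Krt7 at 163 and 14.0 CPM, Krt18 at 243 and 75.2 CPM and Krt8 at 196 and 90.6 CPM. All 13 Muc16 UMIs and all 10 Gpm6a UMIs of the class were in cells with Upk3b, found in 6 and 7 of the 15 cells. Lgals7 was at 959 CPM (863 to 1061) with Upk3b and 992 CPM (941 to 1046) without, intervals that overlap. The cells with Upk3b were deeper, with a median of 25574 against 15753 UMIs, and the part of depth in which genes were detected was not tested.

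A finer clustering, also built without the 10 genes, placed 10 of these embryonic cells in 1 cluster with the 15 and 12 postnatal surface-like cells (Leiden resolution 2; at resolutions 0.5 and 1 no embryonic cell was surface-like). Each of the 10 cells had Upk3b (5 to 31 UMIs, median 11), Krt7 (2 to 13, median 3.5) and Krt19 (2 to 21, median 6.5), and each had between 5 and 9 of the genes. In the 77 other granulosa-like cells Upk3b was found in 5 cells and Krt7 in 19. Upk3b was at 474 CPM in the 10 cells and 11.05 CPM in the others, a ratio of 42.9 (25.8 to 75.9). The ratio was 9.46 (6.48 to 13.9) for Krt19, 8.15 (5.15 to 13.0) for Krt7, 3.15 (2.33 to 4.24) for Krt18 and 2.28 (1.66 to 3.11) for Krt8. Lgals7 was at 981 and 986 CPM, a ratio of 0.995 (0.870 to 1.13), and 1 of the 10 cells had none. The granulosa gene Foxl2 was found in 3 of the 10 cells (25.7 CPM) and in 66 of the 77 (201 CPM), and the mesothelial transcription factor Bnc1 in 8 of the 10 (69.8 CPM) and 3 of the 77 (1.95 CPM).

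Clustered alone, the embryonic library also set cells with these genes apart. A cluster of 24 cells, all granulosa-like in the joint clustering, was led by Upk3b and Krt19, with Krt7 and Krt18 also among its 10 leading genes. Relative to the rest of the library, 10 granulosa markers and 9 surface markers were 2-fold higher or more in it, and it was left unnamed. The cluster held all 10 cells that joined the postnatal surface-like cells, 13 of the 15 granulosa-like cells with Upk3b and 13 of the 21 cells with 5 or more of the genes. Upk3b was at 216 CPM in it and at 3.46 CPM in the 63 other granulosa-like cells, and Krt19 at 145 and 24.3 CPM. Lgals7 was lower in the cluster, at 769 against 1108 CPM, a ratio of 0.695 (0.625 to 0.771).

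**Figure D3:**
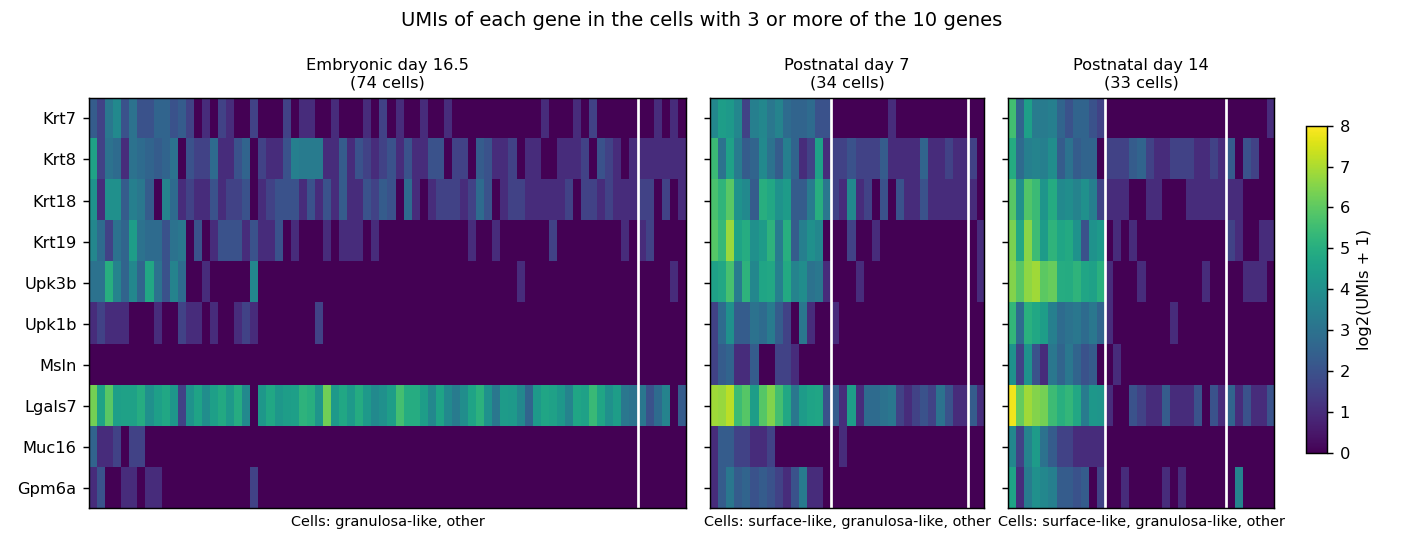
UMIs of each of the 10 genes (vertical axis) in each cell with 3 or more of them (1 column per cell, colour as log2(UMIs + 1)), with white lines between classes and cells ordered by the number of genes. The keratins, Upk3b and Lgals7 are bright in most postnatal surface-like columns at the left of their panels, where Msln and Muc16 reach at most 5 and 4 UMIs at postnatal day 7 and are at 0 in 6 and 7 of the 15 cells; in the 74 embryonic cells Lgals7 is bright nearly throughout, Upk3b and Krt7 are seen mainly at the left, and Msln is at 0 in every cell.

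Embryonic cells with 5 or more of the genes numbered 21, all granulosa-like, and this threshold was chosen after the data were seen. It splits the class by detection of the same genes, so their own values only describe it: 8 of the 9 genes measured were called higher than in the 66 granulosa-like cells with fewer, where 1.32% of 11623 genes were higher and 2.21% lower. Upk3b was at 275 CPM against 0.779, Krt19 at 203 against 12.5 and Krt7 at 129 against 11.7, while Lgals7 was at 969 against 992. Of 15 measured genes of a list of mesothelium and surface epithelium genes that are not among the 10, 7 were higher and none lower. The list's median log2 ratio was 0.85, beside -0.12 over all genes. Bnc1 was at 37.9 CPM against 1.56, Tmem151a, a transmembrane protein, at 60.7 against 3.12, Lrrn4, a leucine-rich repeat protein of mesothelium, at 28.5 against 0, and Podxl, the sialomucin podocalyxin, at 355 against 142. Lhx9, a transcription factor of the genital ridge epithelium, was at 226 against 85.7 CPM.

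Some granulosa genes were lower in the same 21 cells. Of 12 granulosa markers measured 4 were called lower (Gatm, Fst, Foxl2 and Inha) and 1 higher (Gng13), with a median log2 ratio of -0.63 beside -0.12 over all genes. Foxl2 was at 70.2 CPM against 218, found in 9 of 21 and 60 of 66 cells, and Fst, the activin-binding follistatin, at 376 against 1099. The summed level of 20 granulosa markers was still 3496 CPM, 71.8% of the level in the whole class, and haemoglobin Hba-a1 was at 3143 against 1245 CPM. Their part in the result was not tested. The gene with the largest difference, the mast cell protease Cma1, had all of its 135 UMIs in 1 cell.

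In the surface-like cells of the finer clustering, most of the 10 genes were higher at postnatal day 7 than at embryonic day 16.5. This comparison was added after the data were seen. Its cells were grouped without the 10 genes, 10 in the embryo and 15 at postnatal day 7. Of the 10 genes 8 were called higher and 0 lower, where 8.03% of 7295 genes were higher and 6.1% lower. Krt19 was at 283 CPM in the embryo and 1267 at postnatal day 7, a ratio of 4.48 (3.50 to 5.79), and Krt18 at 265 and 1019 (3.85, 2.98 to 5.04). Krt7 was at 180 and 414 CPM (2.30, 1.65 to 3.26) and Krt8 at 217 and 482 (2.22, 1.64 to 3.05). Upk1b was at 33.1 and 209 CPM (6.31, 3.14 to 14.4), Gpm6a at 33.1 and 150 (4.55, 2.21 to 10.5) and Lgals7 at 981 and 2424 (2.47, 2.15 to 2.85). Msln had no UMI in the 10 embryonic cells and 22 in the 15 postnatal ones, and the exact lower limit of the ratio was 4.57. Against the level that 3 counts would give in the embryonic group, a convention and not a limit, it was 6.12-fold higher. Upk3b, at 474 and 881 CPM, had a ratio of 1.86 (1.504 to 2.31) and was not called, and Muc16, at 40.4 and 52.2 CPM, had a ratio of 1.29 (0.570 to 3.05).

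Taking instead all cells with 5 or more of the genes gives another embryonic group, of 21 cells, 11 of which did not join the surface-like cluster. These cells were picked by detection of the genes compared, and the groups are of different classes (granulosa-like in the embryo, surface-like at postnatal day 7), so the values describe them and support nothing. In that grouping 9 of the 10 genes were called higher in the 15 cells of postnatal day 7 and 0 lower, where 4.83% of 8911 genes were higher and 7.82% lower. Upk3b was then at 275 and 881 CPM, a ratio of 3.20 (2.61 to 3.94), so that its call depends on which embryonic cells are taken. The share of cells of other kinds in the embryonic groups was not tested.

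**Figure D4:**
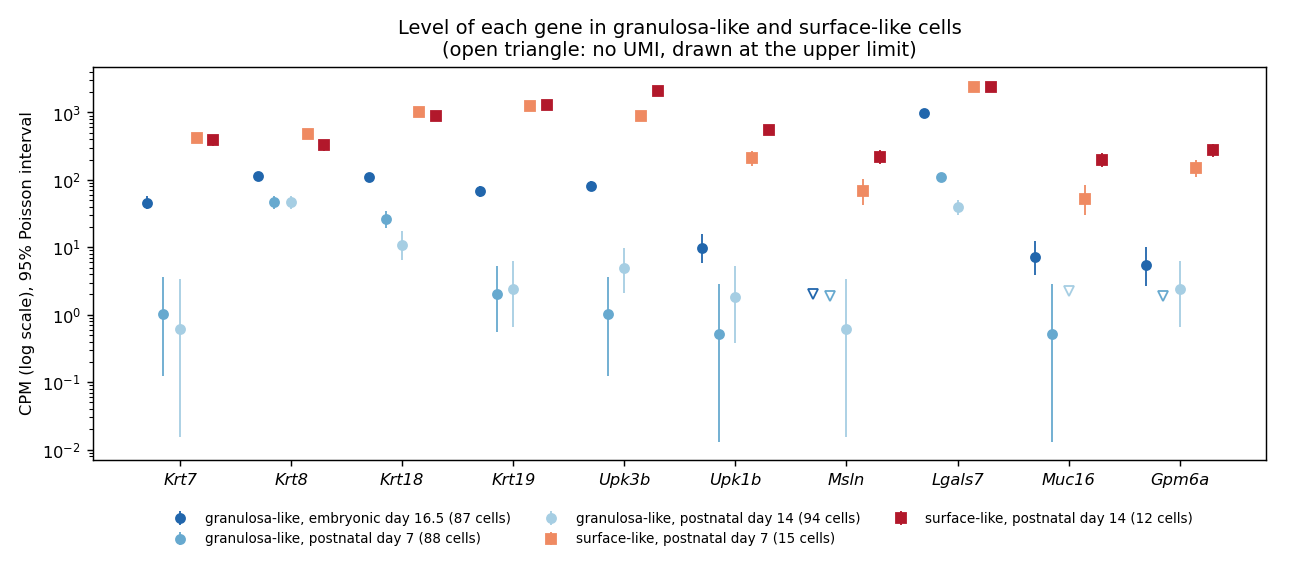
CPM of each of the 10 genes (vertical axis, log scale, with the exact 95% Poisson interval) in granulosa-like cells at 3 ages (circles) and surface-like cells at 2 ages (squares), with an open triangle at the upper limit where no UMI was found. The surface-like squares lie above every granulosa-like circle for all 10 genes, and in granulosa-like cells Lgals7 falls from 985 to 112 and 39.7 CPM while Krt8 is at 113, 46.4 and 46.4 CPM.

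In granulosa-like cells as a whole, Lgals7 and most keratins were lower after birth. Of 9 genes measured, 6 were lower at postnatal day 7 than in the embryo and 0 higher, where 5.08% of 13359 genes were lower and 3.31% higher. Lgals7 had a median of 19 UMIs per embryonic cell (range 0 to 79). The medians were 1 (0 to 24) and 0 (0 to 6) at the 2 postnatal ages in order, and the gene was found in 86 of 87, 61 of 88 and 34 of 94 cells. Thinned to 5000 UMIs per cell it was found in 84, 30 and 16 of them. At 985, 112 and 39.7 CPM, it was 8.82-fold lower (7.66 to 10.2) at postnatal day 7 than in the embryo and 2.81-fold lower (2.12 to 3.77) at postnatal day 14 than at postnatal day 7. The cells of the 3 ages overlapped in part.

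The cells holding 5 or more of the genes made up most of the embryonic Upk3b of this class. With them left out (66 embryonic and 88 cells of postnatal day 7), a choice that itself uses detection of these genes, Upk3b had 1 and 2 UMIs, Muc16 had 0 and 1 and Upk1b had 2 and 1. Lgals7 was then at 992 and 112 CPM, 8.88-fold lower (7.69 to 10.3), Krt18 at 74.0 and 26.0 CPM, 2.85-fold lower (2.00 to 4.08), and these 2 of 5 measured genes were called lower, where 5.56% of 12861 genes were lower and 3.43% higher. Krt8 was at 84.1 and 46.4 CPM, 1.81-fold lower (1.36 to 2.42), and was not called. Krt7 had 15 and 2 UMIs, 11.5-fold lower (2.66 to 103), and Krt19 16 and 4, 6.11-fold lower (1.97 to 25.1), levels too low to be called on (CPM + 10). From postnatal day 7 to 14 Krt8 was at 46.4 CPM in both (ratio 1.00, 0.728 to 1.37) and Krt18 at 26.0 and 10.99 CPM, and Lgals7 alone of 4 measured genes was called lower, where 1.23% of 12649 genes were lower and 1.23% higher. Over the whole span from the embryo to postnatal day 14, 6 of 9 genes were lower and 0 higher in granulosa-like cells, where 5.96% of genes were lower and 2.78% higher.

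Lgals7 was also found at low levels in classes that are not known for it. No empty droplets were analysed, so the part of free RNA in these levels was not measured, and the classes of 1 library differed among themselves. In the embryo it was at 9.78 CPM in erythroid-like cells, with a UMI in 16.0% of 144 cells and in 2.08% after thinning, at 12.2 CPM in endothelium-like cells and at 39.6 CPM (28.7 to 53.4) in germ cell-like cells. The erythroid-like and granulosa-like cells of the embryo had medians of 15792 and 16854 UMIs. An unnamed embryonic cluster led by Ptn, Ncam1, Meg3 and Slit2 stood above all of these, with Lgals7 at 159 CPM (142 to 178), a UMI in 73.3% of 105 cells and in 46 cells after thinning. In the same 105 cells Krt8 was at 4.76 CPM and Krt18 at 5.82 CPM, and Krt7, Upk1b, Msln and Muc16 had no UMI. The name of this cluster depended on the clustering. At resolution 2 a cluster of 99 cells led by the same genes was named stroma. Clustered alone, the embryonic library had a stroma cluster of 93 cells, whose overlap with the 105 was not counted. At postnatal day 7 stroma-like cells were at 30.0 CPM and germ cell-like cells at 39.1 CPM, and at postnatal day 14 stroma-like cells were at 11.5 CPM and the 3 germ cell-like cells at 39.4 CPM (18.0 to 74.8). The level of 39.7 CPM (30.6 to 50.6) in granulosa-like cells of postnatal day 14 was above that of the stroma-like cells of its library but not above that of its germ cell-like cells.

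The mix of Lgals7 with the simple-epithelium keratins shifted with age in granulosa-like cells. Of the UMIs of Lgals7, Krt8 and Krt18 together, Lgals7 made up 81.5% (79.8 to 83.1) in embryonic granulosa-like cells, 60.7% (55.4 to 65.7) at postnatal day 7 and 40.9% (33.2 to 48.9) at postnatal day 14. In surface-like cells it made up 61.8% (59.0 to 64.4) at the earlier postnatal age, where the intervals of both classes overlap, and 66.2% (63.4 to 68.9) at the later one, where they do not. In all 132 unnamed cells of the embryo it made up 92.4% (89.1 to 94.9), above the 81.5% of the embryonic granulosa-like cells. The 132 cells include the 105 described above and 26 of a cluster led by Ccl5, Cma1 and Gzma.

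**Figure D5:**
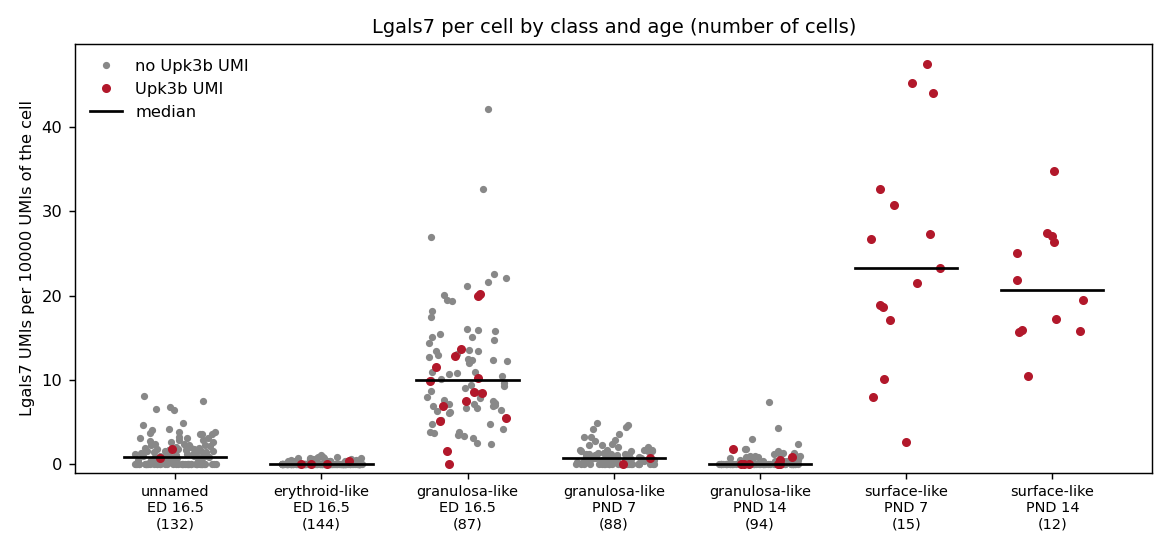
Lgals7 UMIs per 10000 UMIs of each cell (vertical axis) in 7 groups of class and age (horizontal axis, number of cells in parentheses), red where the cell had a Upk3b UMI and with a bar at the median. Embryonic granulosa-like cells have a median of 9.99 with red and grey points mixed, postnatal granulosa-like cells 0.688 and 0, and surface-like cells 23.3 and 20.7 with red points alone.

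The postnatal cells with 3 or more of the genes were a mixture. Against granulosa-like cells with fewer, all 10 genes were higher at both ages. Over all genes, 3.43% and 5.97% were higher and 0.481% and 1.41% lower. This split was made by detection of the same 10 genes, so their values only describe it. The same holds for the embryo and for the threshold of 5 below. Of the germ cell markers 9 of 9 and 10 of 10 measured were also higher, with the egg coat gene Zp3 first at both ages, and 1 and 3 germ cell-like cells were among the 34 and 33 cells. Mesothelium genes outside the list were higher for 12 of 16 and 16 of 18 measured, and 0 lower. In the embryo, where 3.52% of 12000 genes were higher and 1.35% lower, 6 of 9 genes of the list and 3 of 15 mesothelium genes were higher in the 74 cells than in the 19 granulosa-like cells with fewer. From postnatal day 7 to 14, Upk3b, Upk1b, Msln and Muc16 were the 4 genes higher among all cells with 3 or more, as among the surface-like cells, where 2.07% of genes were higher and 1.16% lower. With a threshold of 5, all 10 genes were again higher than in granulosa-like cells with fewer at both postnatal ages, where 6.26% and 9.53% of genes were higher and 8.53% and 7.84% lower. The surface-like cells alone are described next.

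At both postnatal ages genes outside the list were higher in the surface-like cells. The class was found by clustering on such genes, so their values describe it and test nothing. Against granulosa-like cells with fewer than 3 of the 10 genes, all 10 were higher at both ages. Over all genes, 6.67% and 10.5% were higher and 8.9% and 9.05% lower. That comparison group was picked for holding few of the same 10 genes, so their values describe the split and test nothing. Of the list of mesothelium genes, 11 of 14 measured were higher at postnatal day 7 and 17 of 18 at postnatal day 14, and none was lower. The list's median log2 ratios were 3.11 and 3.93, beside -0.11 and -0.06 over all genes. Epcam, an epithelial adhesion molecule, was at 267 and 364 CPM in surface-like cells and at 0 and 3.99 CPM in granulosa-like cells. The other galectins Lgals2 and Lgals1 were higher at both ages, Lgals2 at 353 against 0.664 CPM and then 845 against 0, and Lgals1 at 4504 against 254 and then 9989 against 237.

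Partners of the 10 genes were measured too. Periplakin (Ppl), which links keratin filaments to the cell border, was at 55.2 and 112 CPM in surface-like cells and had no UMI in granulosa-like cells at either age. Of the tetraspanin and uroplakin list 5 of 8 and 7 of 8 measured genes were higher and 0 lower, led by Tspan8 and Tspan1. Of 12 other keratins only 1 was measured at each age and none was called. Gpm6b, the relative of Gpm6a, went the other way, at 6.14 and 12.4 CPM in surface-like against 83.7 and 55.1 CPM in granulosa-like cells. Lgr5, a receptor for R-spondins, was at 138 and 180 CPM against 1.33 and 0, and its ligand gene Rspo1 at 439 and 513 CPM against 32.5 and 2.39. Of 12 cell cycle genes 8 and 7 were lower in surface-like cells and 0 higher, with Mki67 at 0 against 80.4 CPM at postnatal day 7.

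Other surface genes rose along with Upk3b and Msln from postnatal day 7 to 14. In surface-like cells 8 of 18 measured mesothelium genes were higher at postnatal day 14 and 1, Aldh1a1, lower. The list's median log2 ratio was 0.91, beside 0.06 over all genes. Nkain4 was at 27.6 and 183 CPM, Cldn15, a claudin, at 52.2 and 233 CPM and Bnc1 at 39.9 and 124 CPM. Foxl2 was lower, at 67.5 and 3.11 CPM, and the summed granulosa markers in these cells were 29.4% of the level in granulosa-like cells at postnatal day 7 and 12.8% at postnatal day 14. The part of granulosa RNA in the age difference was not tested. Atf3, an immediate stress gene, was at 390 CPM in surface-like cells of postnatal day 7 against 13.3 CPM in granulosa-like cells.

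Gpm6a was also found in endothelium-like cells. In endothelium-like cells it was at 4.06 CPM in the embryo (2 of 19 cells), 25.7 CPM at postnatal day 7 (7 of 21 cells) and 61.0 CPM at postnatal day 14 (11 of 28 cells). At postnatal day 14, 32 of its 43 UMIs in that class lay in the 7 cells with a UMI of Lyve1, a lymphatic vessel marker. The level was 159 CPM in them against 21.8 CPM in the 21 cells without, a split chosen after the values were seen. Gpm6a had a UMI in 5 of the 7 cells and in 6 of the 21, with at most 11 and 3 UMIs per cell. No Lyve1 UMI was found in the endothelium-like cells of the other 2 ages.

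Across 29 sums of a cluster in a library, which share libraries and depth, the levels of the 10 genes ran together, as a description of the same few clusters. The lowest Pearson correlation of log2(CPM + 10) between any pair was 0.63, for Lgals7 with Gpm6a, and Krt8 with Krt18 had 0.95. The genes outside the list most like their summed level were Epn3 and Rspo1, both at 0.96. The closest gene to Krt7 was Tm4sf5 (0.99), to Upk1b Tspan1 (0.99), to Msln Ppl (0.99) and to Lgals7 Rspo1 (0.96).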

How the data were processed

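The series measured single cells of mouse ovary on the 10x Genomics 3' platform, version 2 chemistry per the labels. The deposited tables hold UMI counts per gene and cell, which the authors made with Cell Ranger 2.1.1 on GRCm38, per the submitters' processing notes; which annotation and cell calling were used is not given in the sources used here. Files gave 459, 510 and 585 barcodes. Cells with at least 200 genes and at most 20% mitochondrial counts were kept (3, 1 and 2 removed, each for few genes); no doublet caller was run, and no other column was left out.

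Total counts were 8964585, 8735023 and 9053047 UMIs in kept cells (embryonic day 16.5, postnatal day 7 and 14), with no cell under 5000, the number to which cells were thinned. Cells of all libraries were clustered together with scanpy 1.11.5 and leidenalg 0.10.2 (2000 variable genes without the 10 genes, 30 components, 15 neighbours, resolution 1). A cluster took the class with the most markers (3 or more) raised 2-fold relative to the rest. At least 1 marker of that class had to be among the 10 leading genes of the cluster, and no other class could hold more there. The 10 genes of the list counted there as surface genes, but only against another name. Clusters that failed were left unnamed. Of the listed markers 1, Ahsp, was absent. Counts were summed per class and library with numpy 2.4.6 and scipy 1.17.1 under python 3.11.15. CPM have exact Poisson intervals, shares Clopper-Pearson intervals and ratios exact conditional binomial intervals, all at 95%; counts of 0 use a floor of 3 counts over the group. The scripts were tested on simulated data. Figures used matplotlib 3.10.9.

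With 1 library per age no test across samples is possible and none was made: comparisons are of libraries. Named genes were the 10 genes, listed genes past 2-fold (at most 4 per direction and list), the 10 largest differences per direction with at least 30 UMIs, and the 5 genes most like each member, with exceptions named in the text. The genes, the lists and the threshold of 3 were chosen with earlier results of these data known. Alternatives were other thresholds, thinning, clusterings, pseudocounts and filters. Krt7, Krt8, Lgals7 and Muc16 each overlap an annotated gene on the opposite strand, whose reads could be told apart only if counting used strand. Gpm6a overlaps 5 annotated genes on its own strand. The part of such reads was not measured.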

Additional observations from a re-analysis of the deposited data

How the results depend on the processing

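No paired analysis was possible because each age is 1 library and all 3 carry the same replicate number. Of 498 alternative values, 42 of 107 summary values and 268 of 391 values of single genes or gene lists stayed within a set margin. The margin was the counting error, 1.5 times for counts of called genes, or a fixed step for list medians. A reversal could be recorded only for list medians of 2-fold or more, and none was. The other values were not checked for direction. Values that moved are given for embryonic day 16.5, postnatal day 7 and postnatal day 14 in that order, and the cause was not tested where the setting itself does not fix it. Cells with 3 or more of the genes (74, 34 and 33) became 107, 85 and 65 with 2 or more, 39, 19 and 16 with 4 or more, 21, 15 and 13 with 5 or more, 28, 16 and 15 at 5000 UMIs per cell, 13, 14 and 12 at 2000 UMIs, and 21, 16 and 16 without Krt8 and Krt18; without cells over 3 times the median UMI count postnatal day 14 had 22. The summed level of the genes was 355, 282 and 220 CPM as a mean over cells, and 478 CPM in the embryo without erythroid-like cells. Cells with any of the genes were 33.6%, 21.2% and 16.3% at 5000 UMIs and 27.2%, 12.4% and 10.1% at 2000 UMIs, against 53.5%, 45.2% and 32.8%. The level in granulosa-like cells was 1236 CPM at resolution 2 in the embryo (1426 at resolution 1), and with each library clustered alone 1338 CPM in the embryo, where a cluster led by Upk3b was left unnamed, and 162 CPM at postnatal day 7 (189 jointly), with 2858 CPM in surface-like cells (6965 jointly). Lgals7 in granulosa-like cells with fewer than 3 of the genes (966, 94.97 and 34.3 CPM) was 310, 40.9 and 13.5 CPM in cells chosen instead by a Foxl2 UMI, which holds other classes too, and 1128 CPM in embryonic granulosa-like cells with no other gene of the list.

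Counts of other genes called between cells with 3 or more of the genes and granulosa-like cells with fewer (417 higher and 162 lower, 397 and 57, 702 and 168, and 238 and 136 between postnatal day 14 and 7) moved most. With a pseudocount of 1 CPM they were 1517 and 670, 992 and 510, 1501 and 627, and 841 and 571. With 4 or more of the genes they were 103 and 64 in the embryo, with 425 and 506 lower at postnatal day 7 and 14, and 467 and 293 between these ages. With the surface-like class alone they were 725 and 981, 1119 and 975, and 536 and 277, with no embryonic value. With 5 or more, an alternative added after seeing the data, they were 145 and 257, 716 and 989, 1071 and 890, and 552 and 260. The low counts of Msln, Muc16, Upk1b and Gpm6a in the embryo limit what can be said of single cells.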
